A study of Homo sapiens with 17 samples.

Results

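The genes described here are 33 human genes of the heart muscle programme, taken as a fixed list of symbols and matched to the Ensembl identifiers of the deposited tables. All 33 were found among the 58302 identifiers of the count tables and the 28285 of the expression tables. They comprise 8 transcription factors, 6 thin filament genes, 5 thick filament genes, 9 genes of the Z-disc, M-band and scaffold, and 5 genes of calcium handling. The rule that selects them uses no measured value, but the list was chosen with earlier results of these data known. The share of members called is therefore not independent of these data.

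RNA was sequenced in 17 libraries of cells derived from the H1 line of human embryonic stem cells, a long-established line. The starting cells were endothelial cells, sorted for green fluorescence from a reporter of GATA2 (GATA2/eGFP+), a transcription factor of blood-forming endothelium, after derivation without (Vc-) or with (Vc+) vitamin C. By title, 4 libraries hold sorted cells (2 per condition), and 10 follow re-plated cells at 0, 24, 36, 48 and 60 h with 1 library per condition and time. The last 3 libraries, all with vitamin C, hold the adherent fraction at 60 h and the suspended fraction at 60 and at 96 h. Per the labels, the 0 h libraries are endothelial cells, the 24 to 60 h and adherent libraries are mixtures of endothelial and blood cells, and the suspended libraries are blood cells. All come from 1 cell line, no genotype or strain differs between them, and the labels name no separate cultures, so p-values measure the spread between these libraries, which may be technical. For 2 of the 4 sorted libraries the sample description contradicts the title on vitamin C. By description both libraries numbered 1 were made without it and both numbered 2 with it. Titles were used, and the comparison of number 2 with number 1 serves as the reading by description.

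Heart muscle cells contract by sliding actin thin filaments, which carry the calcium sensor troponin, along myosin thick filaments. Filaments are anchored at Z-discs and M-bands, and calcium is released and taken up again by the sarcoplasmic reticulum. In the embryo, HAND, T-box, NKX2-5, ISL1, MEF2C and GATA factors act in cardiac and neighbouring mesoderm, from which endothelium and endocardium also arise, and myocardin (MYOCD) drives muscle genes as a partner of serum response factor, which binds CArG boxes. Many of these factors are used in more than 1 lineage, so the transcription factors on the list are less specific for heart muscle than the filament genes.

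CArG boxes (CC, 6 bases of A or T, GG) are shown first, because MYOCD, the coactivator that works through them, fell steeply after re-plating. Its fitted log2 difference (-7.04 ± 0.45, SE) was the lowest of the members tested, but that of TRDN (-6.94 ± 0.65) was within its SE. The letters come from the RefSeq promoter table (GRCh38.p14), which matched 25 of the 33 members, and the 250 bases before each start were searched on both strands. The box was present at 4 of the 25 members (16%) and at 1.44% of 27305 genes with windows of the same length. Capitals mark the box, and each run reads 5′ to 3′ on the gene's own strand.
ACTC1 (chr15:34795639-34795668, minus strand): gcgaaggggaCCAAATAAGGcaaggtggca
MYL7 (chr7:44141374-44141403, minus strand): ctgttcctctCCTTATTTGGaccttcaggt
LDB3 (chr10:86668444-86668473, plus strand): gggttacagtCCATTTATGGgcgcagccga
MYOM1 (chr18:3219981-3220010, minus strand): gccttcttggCCATAAAAGGctggttgtgt
GENCODE release 29 places the runs of ACTC1, LDB3 and MYOM1 in an exon of an annotated transcript of the same gene, in full or in part, and the run of MYL7 in no exon. The box's first base lies 109, 61 and 32 bases before the RefSeq start of ACTC1, MYL7 and MYOM1, and 57 or 110 bases before the starts of LDB3. These 4 genes did not share a pattern: ACTC1 and MYL7 were lower after re-plating, LDB3 never exceeded 0.517 CPM (counts scaled to the library total) over the course, and MYOM1 was highest in suspended cells at 96 h.

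AGATAA, the core that GATA factors recognise, was searched in the same windows because the cells were sorted on GATA2. It was present at 8 of 25 members (32%) and at 11.1% of all 27305 genes. No match in a member overlaps a match of another motif. It is printed for XIRP1, which fell steeply after re-plating, and for TNNI3, which was counted almost only in suspended cells, with the match in capitals, on the opposite strand in TNNI3.
XIRP1 (chr3:39192609-39192638, minus strand): cactagccagcaAGATAAaggcagctgctg
TNNI3 (chr19:55157786-55157815, minus strand): cacgcgcccccgTTATCTggcatagtgggc
Of the other motifs, TATAAA was present at 4 of 25 members (ACTC1, MYH6, SMYD1 and TNNT1) and 13% of genes, and the MEF2 motif at 1 of 25 (TTN) and 0.641% of genes. A match of letters describes these windows and is no evidence that a factor binds there.

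Count libraries held 6214675 to 11058345 reads assigned to genes, so that 1 read was 0.0904 to 0.161 CPM. Since the reads carry no molecular identifiers, intervals and limits given here cover counting error only. In libraries of mixed cells, fewer cells of a type and less RNA per cell cannot be told apart. The members summed to 1091 and 1188 CPM in the 0 h libraries and to 670 to 864 CPM in the 8 later libraries of the course.

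**Figure D1:**
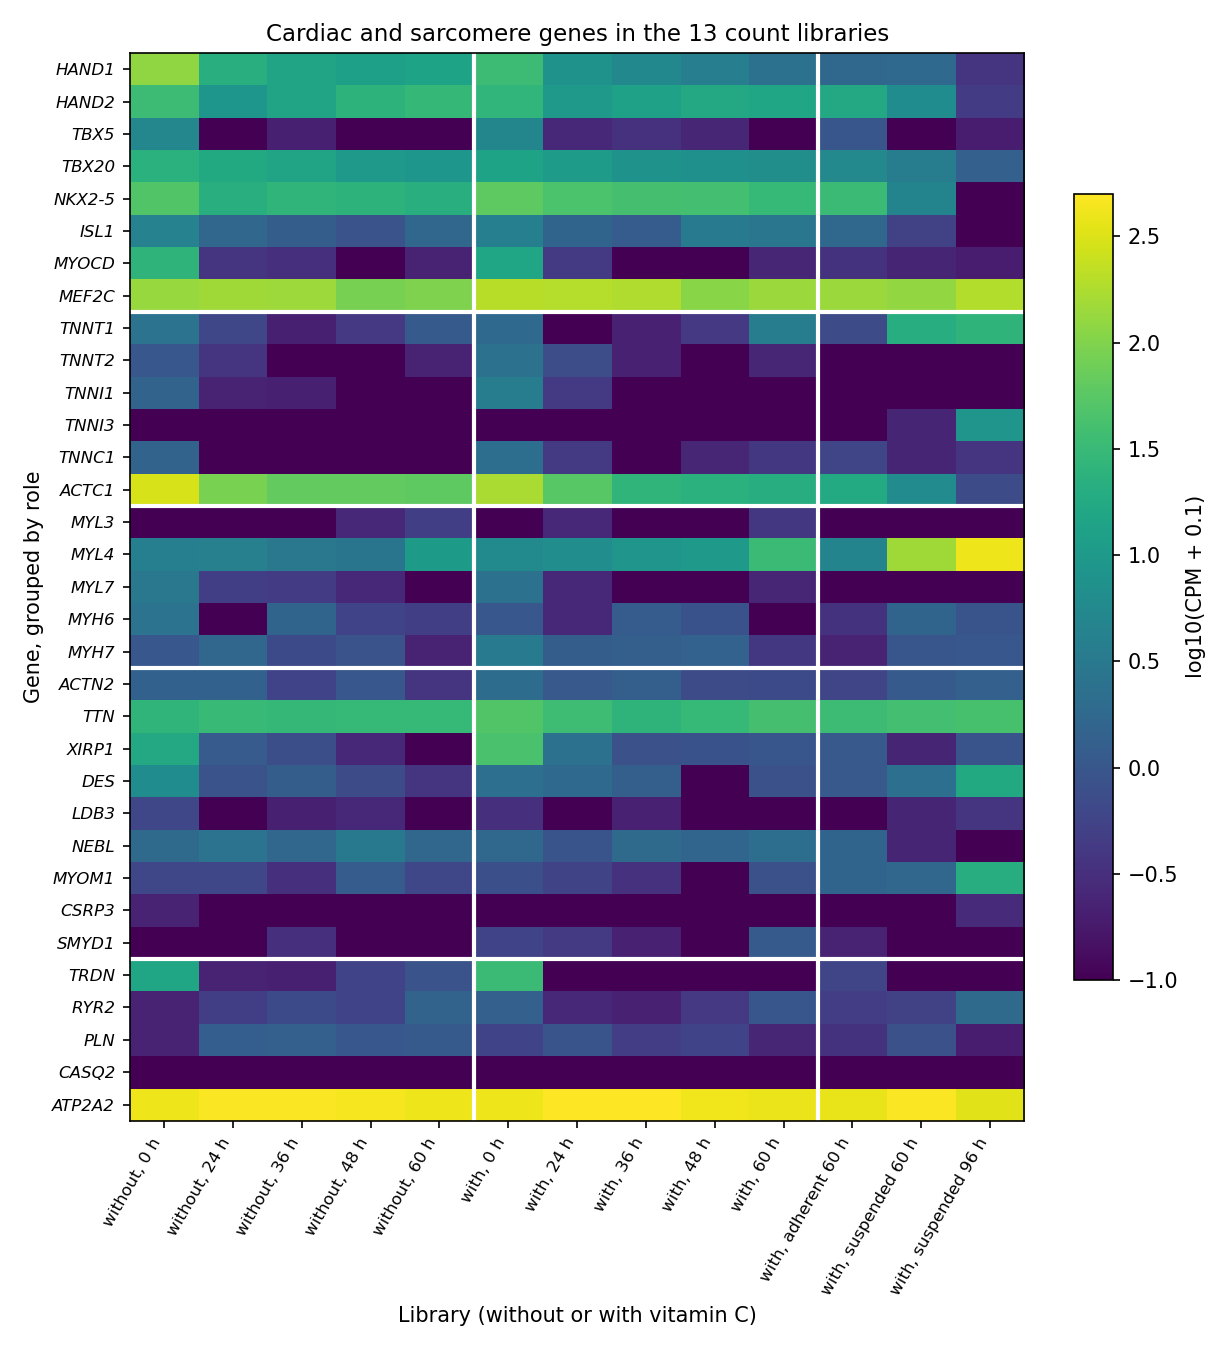
Level of each member, log10(CPM + 0.1), in the 13 libraries with counts. Columns are libraries, white lines separate the course without vitamin C, the course with it and the adherent and suspended cells, and rows are grouped by role. ATP2A2 and MEF2C are bright in every column, MYOCD, XIRP1 and TRDN only in the 0 h columns, and MYL4 brightest in suspended cells.

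Cells at 0 h carried cardiac transcription factors and a few filament genes, while most other markers of heart muscle cells were low. Per kilobase of exonic length, the order at 0 h without vitamin C was HAND1 (70.7 RPKM, CPM per kilobase), ACTC1 (65.5), ATP2A2 (29.3), NKX2-5 (24.0), TBX20 (12.1), MEF2C (11.4) and HAND2 (9.66). With vitamin C it was ACTC1 (36.4), ATP2A2 (29.4), NKX2-5 (28.6), HAND1 (19.8), MEF2C (17.4), HAND2 (7.59) and TBX20 (7.41). HAND1 thus stood first without vitamin C but behind ACTC1, ATP2A2 and NKX2-5 with it, and with 1 library each the neighbours in these orders have no replicate check. The orders also depend on the length used, all annotated exonic bases (1738 for HAND1, 11755 for MEF2C and 13745 for ATP2A2). In the sorted library without vitamin C numbered 1, MEF2C was at 166.4, ATP2A2 at 164.8 and HAND1 at 56.6 TPM (scaled to length and library). Several markers of heart muscle cells were low, given here by their highest values of the course. TNNT2 (cardiac troponin T) reached 2.41 CPM, MYL7 (atrial myosin light chain) 2.97 CPM and ACTN2 (alpha-actinin of the Z-disc) 1.95 CPM. MYH6 and MYH7 (the cardiac myosin heavy chains, close paralogs next to each other on chromosome 14) reached 2.46 and 3.10 CPM. RYR2 (calcium release channel) reached 1.42 CPM. NKX2-5, also a marker of these cells, was higher. So were XIRP1 (17.1 CPM without and 43.3 CPM with vitamin C) and TRDN (14.7 and 33.3 CPM) at 0 h. NPPA (atrial natriuretic peptide, not a member) reached 2.78 CPM. CASQ2 (calsequestrin) had no read in any of the 13 libraries, nor had MYL2 (ventricular light chain) or MB (myoglobin), which are not members. The endothelial list of 10 genes summed to 7009 to 9519 CPM over the course.

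After re-plating, HAND1, MYOCD, TBX5, ACTC1, XIRP1 and TRDN were lower in every later library, and all but HAND1 and ACTC1 were at 6.13% or less of their 0 h level by 24 h. In all, 14 of the 33 members had every one of the 8 later libraries below both 0 h libraries. Among the 25 members with at least 1 CPM in at least 2 course libraries it was 12, where 16.1% of 17110 such genes showed this. Of the 12, TBX5, MYOCD, TNNI1, TNNC1, MYL7 and TRDN reached 1 CPM only at 0 h, so that this limit fixed their place. The count of 12 is thus no support by itself. The edgeR quasi-likelihood test (24 to 60 h against 0 h, vitamin C as a term, Benjamini-Hochberg adjustment) covered 23 members and found 13 lower and 0 higher at an adjusted p under 0.05. The background was 10.9% lower and 9.65% higher of 16276 genes. TBX5, MYOCD, TNNI1, TNNC1, MYL7 and TRDN passed the filter on low counts only through the 0 h libraries and so had to be lower. XIRP1 and DES passed it in both 0 h libraries and in only 1 later library. The count of 13 is therefore no support by itself. With no filter, 31 members were tested, with 13 lower (HAND2 and TNNT2 among them, ISL1 and TBX20 not), against 5.59% of 31039 genes.

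Among the transcription factors, 6 of 8 were called lower after re-plating, where 10.9% of 16276 genes were. Of these 6, MYOCD and TBX5 passed the filter only through the 0 h libraries, and ISL1 and TBX20 lost their call with no filter. HAND1 (ENSG00000113196, chr5:154474972-154478264 in GRCh38), a basic helix-loop-helix factor of the heart tube and extraembryonic mesoderm, was at 123, 20.5, 14.4, 12.04 and 13.8 CPM at 0, 24, 36, 48 and 60 h without vitamin C. With vitamin C its levels were 34.3, 7.72, 5.21, 3.67 and 2.34 CPM. Both 0 h libraries stood above all 8 later ones, and at each time the library with vitamin C was the lower. The log2 difference after re-plating was -2.92 ± 0.26 (SE, edgeR adjusted p = 3.2e-05).

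MYOCD (ENSG00000141052, chr17:12665890-12768949) was at 25.1 CPM at 0 h without vitamin C (194 reads) and at 15.5 CPM with it (135 reads). In the 8 later libraries together it had 8 reads, at most 0.322 CPM in any of them. At 24 h, 1.04% of the 0 h level was left without vitamin C and 2.08% with it. The log2 difference was -7.04 ± 0.45 (SE, edgeR adjusted p = 5e-06). TBX5, a T-box factor of the first heart field, fell from 5.04 and 4.82 CPM at 0 h (39 and 42 reads) to 5 reads in the 8 later libraries, with a log2 difference of -5.63 ± 0.61 (edgeR adjusted p = 0.000107).

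NKX2-5 (ENSG00000183072, chr5:173232109-173235357), the homeobox factor of early heart cells that also marks some endothelium, fell less. It was at 50.2, 21.6, 26.6, 24.2 and 20.7 CPM without vitamin C and at 59.8, 45.2, 40.9, 39.4 and 30.4 CPM with it. Both 0 h libraries were above every later one, and the later libraries with vitamin C were all above the later ones without. The log2 difference after re-plating was -0.85 ± 0.16 (SE, edgeR adjusted p = 0.00403). TBX20, a T-box factor of myocardium and endocardium, declined in steps, from 22.7 to 17.4, 14.2, 9.57 and 8.79 CPM without vitamin C and from 13.9 to 10.8, 7.63, 7.03 and 6.59 CPM with it. The groups overlapped, since the 0 h library with vitamin C was below the 24 and 36 h libraries without it. Its log2 difference of -0.81 ± 0.26 (edgeR adjusted p = 0.047) and that of the LIM-homeobox factor ISL1 (-1.31 ± 0.43, adjusted p = 0.0492) were close to the threshold.

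HAND2, the paralog of HAND1 in the second heart field and limb, followed another course. It was at 34.8, 8.75, 14.2, 24.5 and 29.2 CPM without vitamin C and at 27.3, 9.82, 12.8, 17.1 and 14.9 CPM with it. At 24 h, 25.2% and 35.9% of the 0 h level was left, and at 60 h 84.1% and 54.6%, so that both conditions were lowest at 24 h. Its difference against 0 h did not pass (-0.91 ± 0.33, edgeR adjusted p = 0.0703), though it did without the 24 h (0.0427) or the 60 h library (0.0228) lacking vitamin C. HAND2-AS1, a gene on the opposite strand that overlaps HAND2, had up to 18.2 CPM. Whether counting used strand is not given in the sources used here, so that reads of the pair may be mixed. MEF2C, a MADS-box factor of muscle, endothelium and blood, was at 87.5 to 148 CPM without vitamin C and 109 to 204 CPM with it and did not pass (-0.26 ± 0.24, edgeR adjusted p = 0.473). Its antisense gene MEF2C-AS2 had up to 16.2 CPM.

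**Figure D2:**
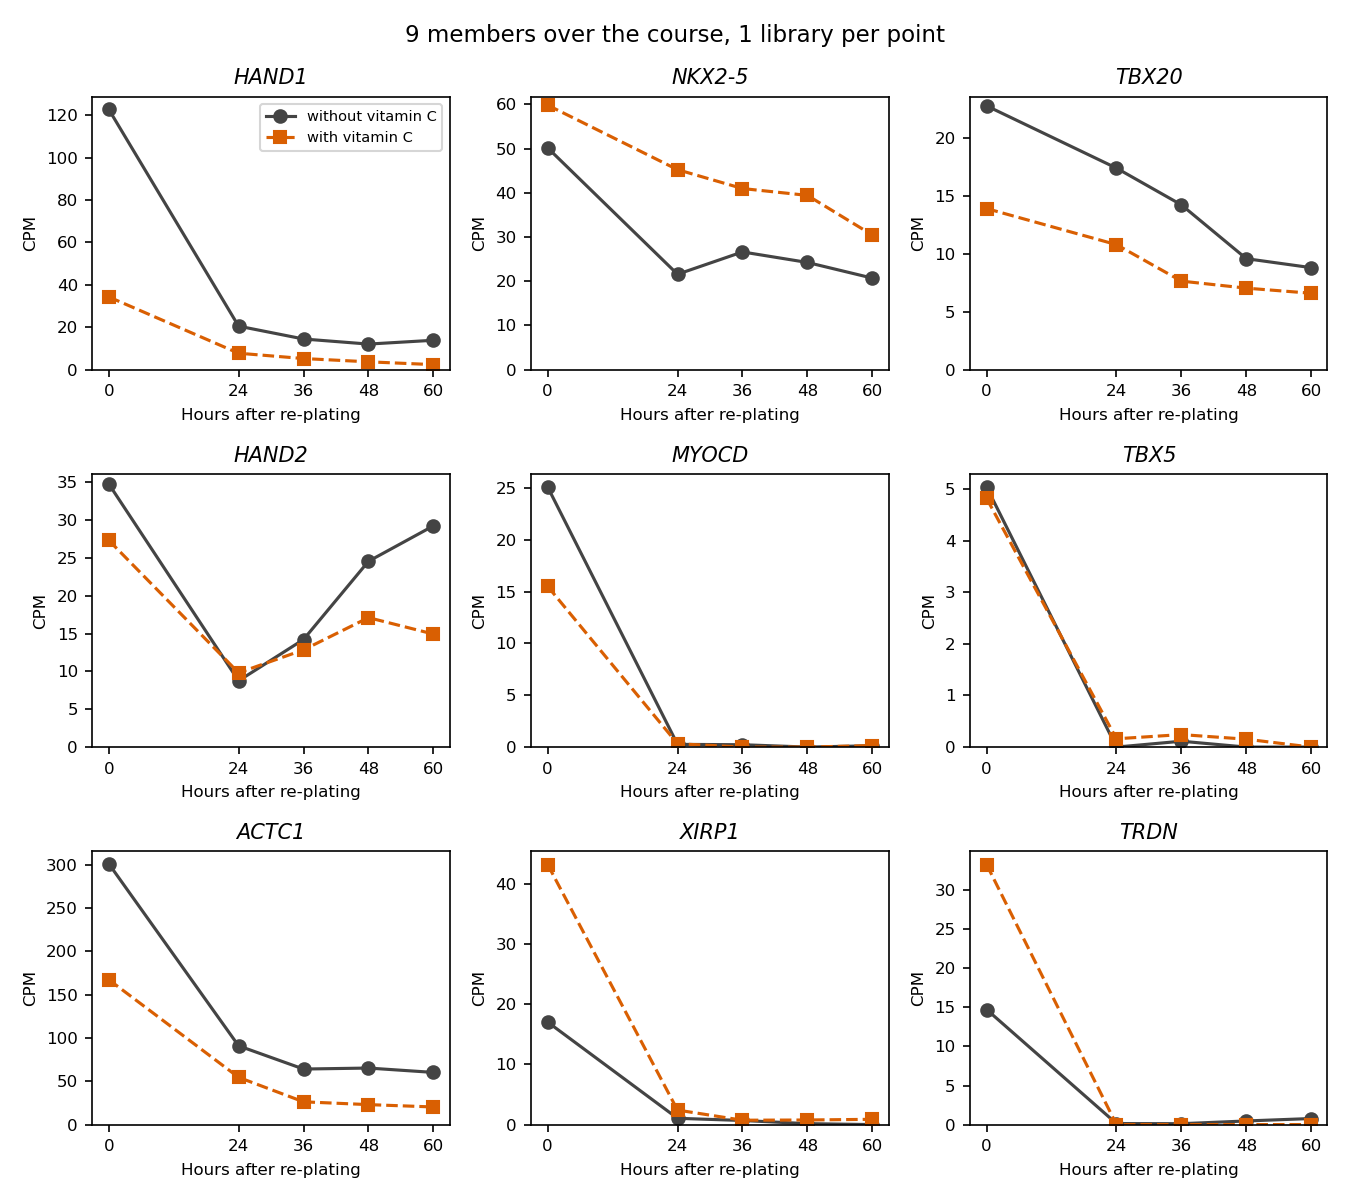
CPM (linear axes from 0) of 9 members against hours after re-plating, 1 library per point, circles and solid lines without vitamin C, squares and dashed lines with it. MYOCD, TBX5, XIRP1 and TRDN drop to near 0 by 24 h, HAND1 and ACTC1 keep a lower level, and HAND2 is lowest at 24 h.

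In the thin filament group, ACTC1 held nearly all of the reads. ACTC1 (ENSG00000159251, chr15:34788095-34795726), the cardiac alpha-actin that is also made in other embryonic cells, was at 301, 90.9, 64.1, 65.3 and 60.3 CPM without vitamin C. With vitamin C it was at 167, 54.5, 26.3, 23.1 and 20.3 CPM. Every later library was below both 0 h libraries, with a log2 difference of -2.25 ± 0.27 (SE, edgeR adjusted p = 0.00019). TNNI1 (slow skeletal troponin I, the form of the embryonic heart) and TNNC1 (the calcium-binding troponin C of heart and slow muscle) fell too, from low levels: TNNI1 had 41 reads in the 0 h libraries and 4 in the later ones, and TNNC1 had 29 and 5. TNNC1 was at 1.42 CPM at 0 h without vitamin C and had no read at 24 to 60 h there. With vitamin C it was at 2.07, 0.322, 0, 0.153 and 0.293 CPM. Their log2 differences were -4.74 ± 0.77 and -4.25 ± 0.78 (edgeR adjusted p = 0.00139 and 0.00287).

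TNNT1 (ENSG00000105048, chr19:55132794-55149354), slow skeletal troponin T, was at 2.46, 0.523, 0.114, 0.309 and 1.03 CPM without vitamin C and at 1.72, 0, 0.121, 0.305 and 3.66 CPM with it. Its highest course library was thus the 60 h library with vitamin C, and it did not pass (-1.55 ± 1.02, edgeR adjusted p = 0.316), though it did without that library (-2.72 ± 0.69, adjusted p = 0.0189). TNNT2 had 28 reads at 0 h and 9 later and did not pass the filter on low counts. With no filter it was lower (-3.16 ± 0.83, edgeR adjusted p = 0.0144). TNNI3 (cardiac troponin I) had no read in any course library. A count of 0 allows up to 0.341 to 0.483 CPM in these libraries.

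Of the thick filament genes, only MYL7 fell, from 2.97 and 2.30 CPM at 0 h to 0.392 CPM or less later (-4.05 ± 0.68, edgeR adjusted p = 0.00164). MYL4 (ENSG00000198336, chr17:47200446-47223679), the embryonic and atrial light chain that is also expressed in early red cells, moved the other way without passing the test. It was at 3.88, 4.05, 2.96, 2.62 and 10.3 CPM without vitamin C and at 5.74, 6.44, 8.48, 10.1 and 32.8 CPM with it, and the 60 h library was the highest in each condition (0.87 ± 0.68, adjusted p = 0.402). MYH6 and MYH7 did not pass (adjusted p = 0.285 and 0.292), and MYL3 never exceeded 0.388 CPM.

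XIRP1 and TRDN were the structural and calcium handling members with the steepest fall. XIRP1 (ENSG00000168334, chr3:39183210-39192596), an actin-binding protein of intercalated discs, was at 17.1, 1.05, 0.682, 0.154 and 0 CPM without vitamin C and at 43.3, 2.41, 0.727, 0.764 and 0.878 CPM with it. TRDN (ENSG00000186439, chr6:123216339-123637093), triadin, which anchors calsequestrin to the release channel, was at 14.7, 0.131, 0.114, 0.463 and 0.776 CPM without vitamin C. With vitamin C it was at 33.3 CPM at 0 h (290 reads) and had no read in any of the 4 later libraries, where 3 reads at 24 h would have been 1.45% of the 0 h level. In both genes the 0 h library with vitamin C was the highest of the course and the later libraries did not overlap with either 0 h library. The log2 differences were -5.12 ± 0.47 for XIRP1 and -6.94 ± 0.65 for TRDN (edgeR adjusted p = 3.6e-05 and 4.2e-05).

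DES (desmin, the muscle intermediate filament) was at 6.20, 0.784, 1.14, 0.617 and 0.259 CPM without vitamin C and at 2.18, 1.77, 1.21, 0 and 0.732 CPM with it. Its fall (-2.28 ± 0.70, edgeR adjusted p = 0.0388) shrank to -1.18 (adjusted p = 0.601) without the 0 h library lacking vitamin C. TTN (titin, the spring that spans the sarcomere) stayed between 26.4 and 31.1 CPM without vitamin C and was at 48.8, 35.9, 25.7, 30.2 and 40.5 CPM with it. Over its long transcript that is 0.222 and 0.410 RPKM at 0 h. TTN-AS1, antisense to it, had up to 19.9 CPM, and neither TTN (adjusted p = 0.485) nor ACTN2 nor NEBL (nebulette) passed. LDB3, MYOM1, CSRP3 and SMYD1 stayed at or below 1.08 CPM over the course and were not tested.

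ATP2A2, the calcium pump of the sarcoplasmic and endoplasmic reticulum that is used well beyond muscle, drew the most reads of any member in the later course libraries. It was at 402, 481, 475, 449 and 404 CPM without vitamin C and at 404, 486, 502, 422 and 395 CPM with it. Its log2 difference after re-plating was 0.19 ± 0.12 (edgeR adjusted p = 0.30), and levels at 60 h were 100.4% and 97.7% of those at 0 h. RYR2 and PLN (phospholamban, the pump's inhibitor) stayed at or below 1.42 and 1.25 CPM, and PLN lies within CEP85L on the opposite strand, which had up to 137 CPM.

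How firmly the fall stood depended on the gene. HAND1 and ACTC1 passed the filter in all 10 libraries and were called in every alternative, including each condition alone. XIRP1 was called in every alternative too, but like DES it passed the filter in 3 libraries, 2 of them at 0 h. Its calls therefore say less of how firm the fall was. MYOCD, TRDN and TBX5 were called wherever they were tested, but they entered only through the 0 h libraries, so that these calls show nothing of how firm their fall was. Leaving out either 0 h library reduced the 13 calls to 8. Without the 0 h library lacking vitamin C, the edgeR adjusted p rose to 0.177 for NKX2-5, 0.14 for TNNC1, 0.323 for TBX20, 0.496 for ISL1 and 0.601 for DES. Without the one with vitamin C it rose to 0.0511 for MYL7, 0.0823 for TNNI1, 0.214 for TBX20, 0.115 for ISL1 and 0.072 for DES. The 3 weakest calls were also lost without some of the later libraries. For ISL1 these were any later library except those at 48 and 60 h with vitamin C (adjusted p 0.0542 to 0.0833), for TBX20 the 36 or 48 h library of either condition or the 60 h library with vitamin C (0.0603 to 0.0743), and for DES the 24, 36 or 48 h library without vitamin C (0.0567 to 0.0726). In fits of each condition alone, added after seeing the data, 8 members were lower without vitamin C and 6 with it, where 2.77% of 16634 and 2.7% of 16311 genes were. MYOCD, TRDN and TBX5 are in both counts. XIRP1 and DES are in the count without vitamin C, where after 0 h they were at 1.05 and 1.14 CPM or less. All of these passed the filter there only through the 0 h library and so had to be lower. These counts are thus no support by themselves.

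Other heart muscle genes, from lists chosen with earlier results known, did not all follow. Of 19 further cardiac transcription factors, 16 were tested, with 6 lower and 1 higher. The lower ones included GATA4 (-1.85 ± 0.15), GATA5 (-3.79 ± 0.38) and the homeobox factor IRX3 (-5.37 ± 0.49). Of 26 further sarcomere and Z-disc genes, 12 were tested and 3 were higher, namely PDLIM5 (1.08 ± 0.12), the stretch-responsive ANKRD1 (2.82 ± 0.54) and PDLIM3 (2.93 ± 0.80). Of 15 further genes of excitation and calcium handling, 12 were tested, with 3 lower and 3 higher, and the channel subunit CACNA2D2 (-3.60 ± 0.24) and the calcium-binding HRC (-4.54 ± 0.58) were the lower ones with the smallest p. All these values are edgeR log2 differences with SE.

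Markers of other cells moved over the same interval. Of 10 mesenchyme genes 9 were tested and 5 fell, including COL1A2 (-3.01 ± 0.27), COL6A3 (-2.38 ± 0.20) and COL1A1 (-1.20 ± 0.22). Their sum was 5572 and 5978 CPM in the 0 h libraries and 1317 to 6004 CPM in the later ones. Of 10 endothelial genes, 4 rose and 2 fell, and the sum was 7009 and 7875 CPM at 0 h and 7967 to 9519 CPM later. Of 10 smooth muscle genes 7 were tested and 1 fell (MYL9), and the sum was 870 and 962 CPM at 0 h and 827 to 1196 CPM later. MYH11 had no read, while ACTA2, TAGLN and CNN1 were at 71.1, 84.8 and 18.7 CPM at 0 h without vitamin C. With it they were at 61.0, 50.7 and 8.7 CPM. Of 12 blood genes 11 were tested and 1 fell (VAV1), and the sum was 151 and 205 CPM at 0 h and 79.9 to 540 CPM later. Of 14 skeletal muscle genes 2 were tested with no call, and the sum was at most 4.78 CPM. MYOD1 and MYF5 had no read, while MYH3 reached 2.71 CPM and MYOG 2.30 CPM over the course. The part of other cells in the fall of the members was not tested.

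Whether the fall differed between conditions was tested by the interaction of vitamin C with re-plating. It called 0 of 25 members and 0 of 17315 genes (0.0%) with edgeR, where 626 genes had an unadjusted p under 0.05 and DESeq2 called 15 genes and no member. Among members, TRDN (-5.68 ± 1.47, unadjusted p = 0.00537), TTN (-0.75 ± 0.31, 0.037) and RYR2 (-4.08 ± 1.79, 0.0449) had the lowest p, each with an edgeR adjusted p of 0.9999. For TRDN this compares a fall to 11 reads in 4 libraries without vitamin C with a fall to 0 reads with it.

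Members differed in both directions between the course libraries with and without vitamin C. With the time point as a factor, edgeR called 4 of 23 tested members higher and 3 lower with vitamin C, against 2.5% and 3.37% of all 16276 genes. The same 10 libraries serve here as in the comparison with 0 h, and no member had all 5 libraries of 1 condition above all 5 of the other, as 0.766% (higher) and 0.818% (lower) of genes did. The median log2 difference of the 23 members was 0.22, beside 0.01 over all genes tested, but -0.01 in DESeq2 on the same members and -0.01 without the 0 h pair (11 members).

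Lower with vitamin C were HAND1 (-1.76 ± 0.15, SE, edgeR adjusted p = 4.1e-05), ACTC1 (-1.16 ± 0.12, adjusted p = 0.000187) and TBX20 (-0.65 ± 0.14, adjusted p = 0.0194), each at 5 of 5 times. On the log2 scale the ratio for ACTC1 was -0.85 at 0 h, -0.73 at 24 h and -1.54 at 60 h. That for HAND1 was -1.83 at 0 h, -1.35, -1.39 and -1.59 at 24, 36 and 48 h, and -2.33 at 60 h. Neither trend was tested. HAND2 was lower at 4 of 5 times and did not pass (-0.40 ± 0.15, adjusted p = 0.167). TBX20 lost its call without the 24 h or the 36 h library of either condition (adjusted p 0.0653 to 0.11).

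Higher with vitamin C was MEF2C (0.43 ± 0.07, SE, edgeR adjusted p = 0.00322), at 5 of 5 times. So were MYL4 (1.28 ± 0.23, adjusted p = 0.00501) and NKX2-5 (0.62 ± 0.11, adjusted p = 0.00609). XIRP1 was higher too (1.32 ± 0.35, edgeR adjusted p = 0.0449), but from 36 h on it was at 0.878 CPM or less. Its 36 h libraries with and without vitamin C were at 0.727 and 0.682 CPM, and XIRP1 was not tested without the 0 h pair. XIRP1 was at 43.3 against 17.1 CPM at 0 h and at 2.41 CPM or less later, and its call was lost without the 0, 24 or 48 h library of either condition (adjusted p 0.0961 to 0.216). For MYL4 the log2 ratio was 0.51 at 0 h and 1.62 at 60 h. With no term for time, 6 of the 7 were tested (not XIRP1) and none was called. TRDN, not called here (0.22 ± 0.65, edgeR adjusted p = 0.908), was lower with vitamin C without the 0 h library lacking it (-4.50 ± 1.19, adjusted p = 0.0341). That fit has no pair at 0 h, so for TRDN it compares 11 reads without vitamin C with 0 reads with it at 24 to 60 h.

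At 0 h alone, before re-plating, 14 members had at least 5 CPM in 1 of the libraries. XIRP1 was 2.54-fold (95% interval 2.08 to 3.12) and TRDN 2.26-fold (1.81 to 2.83) higher with vitamin C, where 2.29% of 12502 genes were at least 2-fold higher. HAND1 was 3.58-fold (3.14 to 4.09) and DES 2.84-fold (1.64 to 5.12) lower, where 2.54% of genes were. The intervals are exact binomial ones on the reads, and with 1 library each they compare libraries, not conditions. HAND1 and XIRP1 thus moved in opposite directions in the same pair of libraries.

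**Figure D3:**
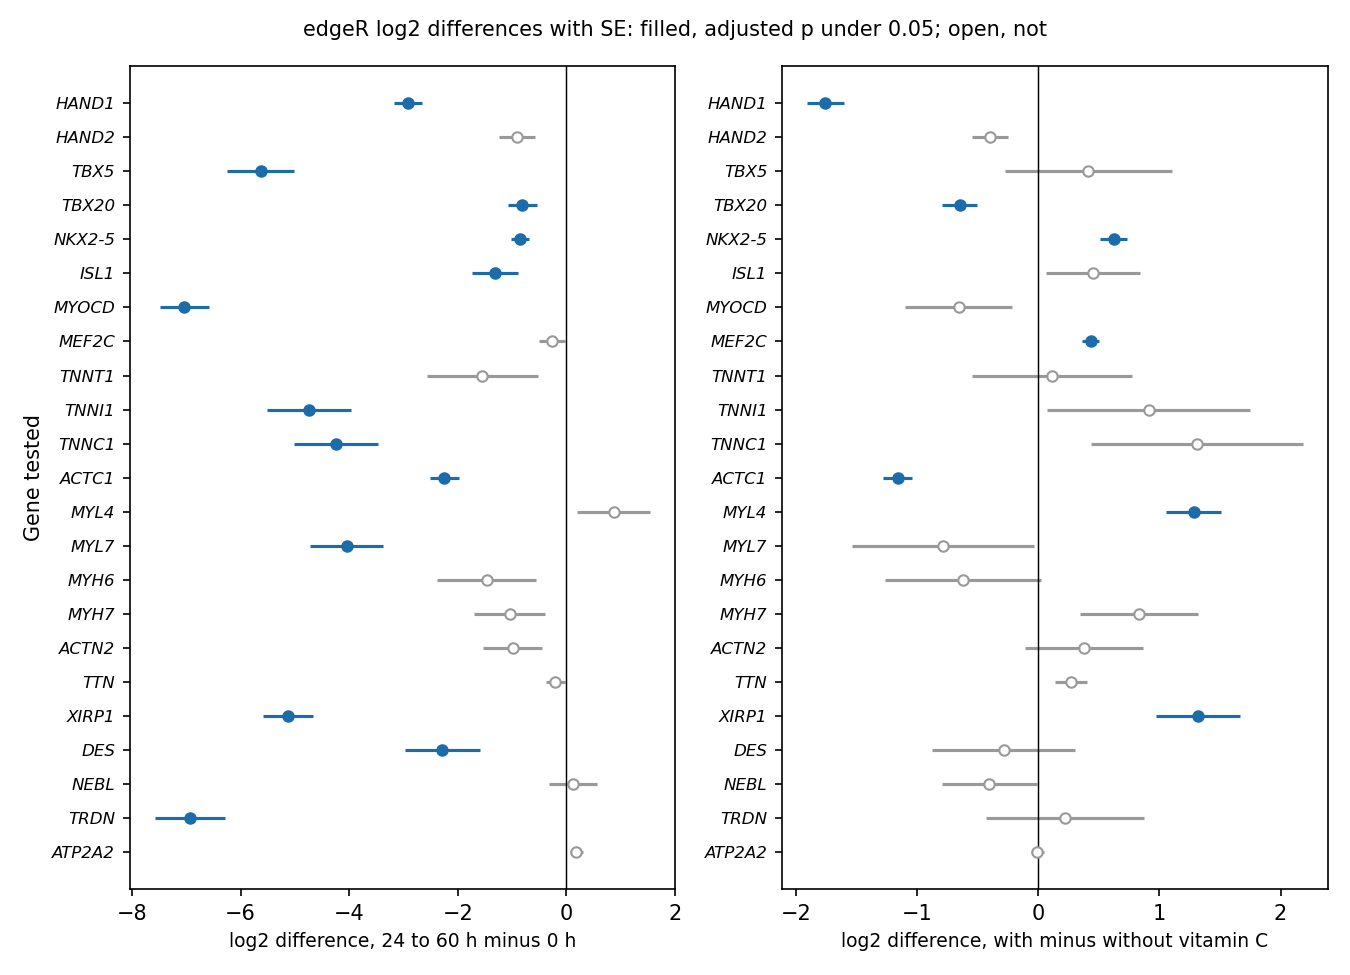
Log2 differences with SE from edgeR for the 23 members tested, left for 24 to 60 h minus 0 h and right for with minus without vitamin C over the course. Filled points have an adjusted p under 0.05 (13 at left, 7 at right); all filled points at left lie below 0, while those at right lie on both sides.

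Further lists gave the setting of these differences. Of the other cardiac transcription factors, GATA4 (-0.95 ± 0.08) and NR2F2 (-1.53 ± 0.26) were lower with vitamin C and MEIS1 was higher, of 16 tested. Of the 12 tested sarcomere and Z-disc genes, PDLIM3 (-2.95 ± 0.46), MYOZ2 (-1.11 ± 0.18) and FLNC (-0.73 ± 0.12) were lower and none was higher. Of 9 mesenchyme genes 6 were lower, with COL3A1 (-1.14 ± 0.22), LUM (-1.39 ± 0.23) and COL1A1 (-0.73 ± 0.11) among them, and their sum was 1908 to 6004 CPM without vitamin C and 1317 to 5572 CPM with it. Of 11 blood genes 8 were higher, led by SPI1 (3.25 ± 0.27), and their sum was 79.9 to 151 CPM without and 146 to 540 CPM with vitamin C. Of 7 smooth muscle genes 2 were lower and of 10 endothelial genes 3 were higher. The blood marker PTPRC was at 0 in the course libraries without vitamin C and at 0.293 CPM or less, under the limit of 3 reads, in those with it. The part of these cells in the members' differences was not tested.

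In sorted cells, read without re-plating, HAND1, HAND2, MEF2C, NKX2-5, ACTC1 and ATP2A2 were the members with the highest mean levels. The unit of these tables was read as TPM (transcript abundance scaled to length and library), their depth is unknown, and limma on log2(TPM + 1) called 0 of 22 members and 0 of 14421 genes (0.0%) for vitamin C by title, with 313 genes at an unadjusted p under 0.05. Levels without vitamin C (replicates 1 and 2) and with it (1 and 2) were 56.6, 22.7, 52.7 and 22.1 TPM for HAND1. For HAND2 they were 55.7, 22.4, 63.0 and 25.4 TPM. In both genes the libraries of 1 number lie together, so that the conditions overlap by title and stand apart by description.

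MEF2C was at 166.4, 76.5, 133.5 and 68.2 TPM, TBX20 at 15.9, 9.35, 12.4 and 5.46 TPM and TNNC1 at 10.2, 5.84, 9.10 and 4.79 TPM, in the same order of libraries. These too were higher in both libraries numbered 1, as were TTN (1.59, 0.63, 1.37 and 0.46 TPM) and ACTC1 (110.0, 17.5, 19.8 and 19.1 TPM), though for ACTC1 the first library, without vitamin C, stood apart and the other 3 were close. MYOCD (0.34, 5.87, 0.15 and 1.96 TPM), TNNT1 (5.13, 22.9, 4.15 and 14.8 TPM) and MYL4 (9.46, 20.5, 7.82 and 14.3 TPM) were higher in both libraries numbered 2.

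Other members did not follow the number. NKX2-5 was at 36.9, 37.4, 43.8 and 84.4 TPM, both libraries with vitamin C being the higher, and ATP2A2 was at 164.8, 157.7, 127.1 and 134.4 TPM, both being the lower. By description the conditions overlapped in both genes. XIRP1 was at 26.6, 6.99, 13.8 and 19.3 TPM and TRDN at 5.17, 4.32, 0.97 and 7.12 TPM, with overlap between the conditions by title and by description. DES was at 11.3, 7.14, 3.51 and 2.82 TPM. DES (-1.27 ± 0.43, unadjusted p = 0.0275) and MYL7 (-1.84 ± 0.55, unadjusted p = 0.0167) were lower with vitamin C by title and did not pass (limma adjusted p = 0.9998). By description the differences were -0.41 ± 0.56 for DES and 0.66 ± 0.78 for MYL7 (limma adjusted p = 0.697 and 0.653).

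By replicate number, 4 of the 22 members tested had both libraries numbered 2 above both numbered 1, and 9 had them below, where 17.9% and 37.1% of 14421 genes did. By title, 1 of the 22 had both libraries with vitamin C above both without, and 4 below, where 9.09% and 19.3% of genes did. The median of all genes was -0.16 on the log2 scale for number 2 against 1. In limma with vitamin C as a term, 1 of 22 members passed: TNNT1, at 18.9 ± 5.73 TPM in number 2 and 4.64 ± 0.693 TPM in number 1 (mean ± SD, n = 2), was higher by 1.79 ± 0.30 on the log2 scale (adjusted p = 0.0487), beside 0.423% of genes higher and 1.23% lower. HAND2 (-1.28 ± 0.22, adjusted p = 0.0511), HAND1 (-1.25 ± 0.22, 0.0528), MEF2C (-1.04 ± 0.19, 0.0569) and MYOCD (1.86 ± 0.41, 0.0739) were near the threshold. A number is no treatment in the titles, whereas by description it is vitamin C, and the 2 readings cannot be told apart from these files. With the descriptions' groups, which leave out the titles, 0 members and 156 genes were called.

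Lists of other cells also differed with the number. The mesenchyme list summed to 2916 and 1948 TPM in number 1 (without and with vitamin C by title) and to 2028 and 1315 TPM in number 2, and 1 of its 10 genes, COL3A1, was called lower in number 2. The blood list summed to 137 and 93.9 TPM in number 1 and to 201 and 235 TPM in number 2 with no call. The remaining 18 members that the rule for named genes left out reached at most 8.23 TPM (TNNI1 in the first library), and CSRP3 and CASQ2 were listed at 0 in all 4 libraries.

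**Figure D4:**
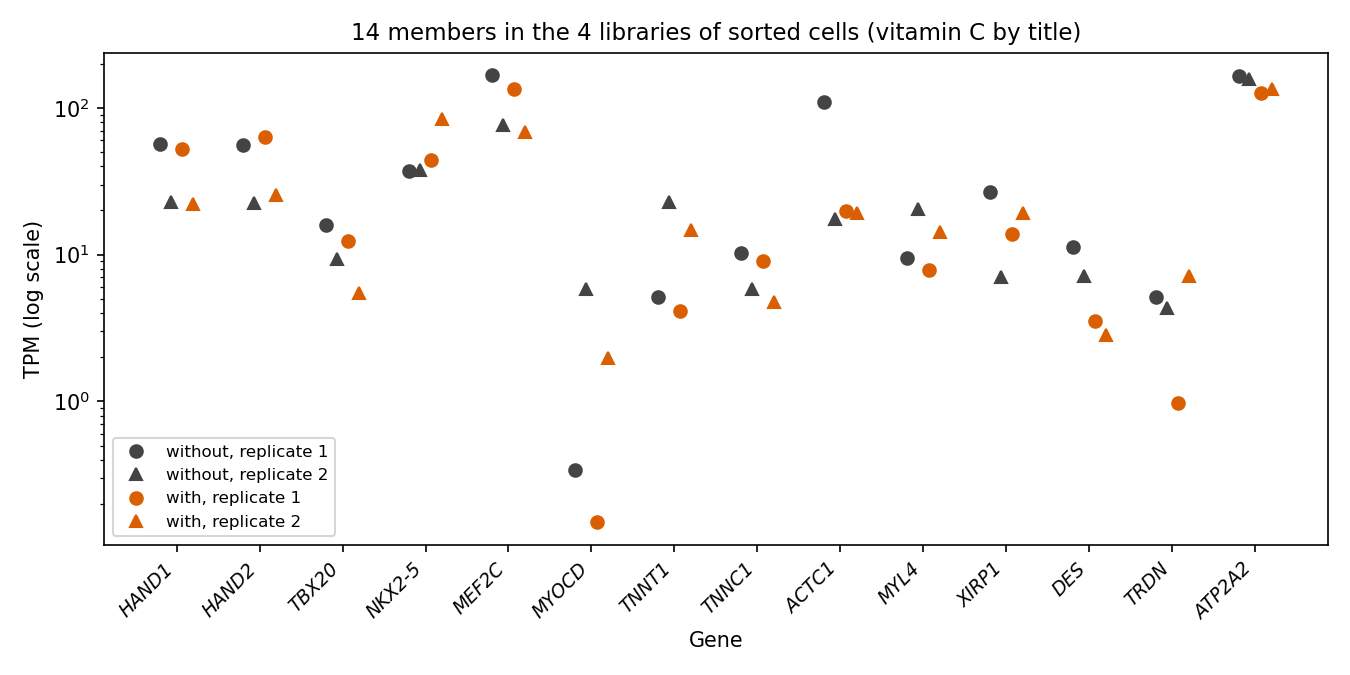
TPM (log axis) of 14 members in the 4 libraries of sorted cells, grey without and orange with vitamin C by title, circles replicate 1 and triangles replicate 2. For HAND1, HAND2, MEF2C, TBX20 and TNNC1 both circles lie above both triangles, and for MYOCD, TNNT1 and MYL4 below.

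Suspended blood cells carried another subset of the same genes. Each has 1 library, so no test was made, and a member counts as different past 2-fold (0.5 CPM added) if its higher library reaches 5 CPM. At 60 h, 9 members could be compared between suspended and adherent cells, and 2 were higher and 3 lower in suspended cells, where 12.3% and 14.6% of 12705 genes were. MYL4 was at 149.6 CPM in suspended and 4.56 CPM in adherent cells, 32.8-fold higher (95% interval 23.7 to 46.9). TNNT1 was at 20.0 and 0.616 CPM, 32.4-fold higher (13.6 to 102), from 139 and 5 reads. These 2 were the only members past the limit upward.

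NKX2-5 was at 4.6 CPM in suspended and 33.8 CPM in adherent cells, 7.34-fold lower (5.08 to 10.9). ACTC1 (6.04 and 18.0 CPM) was 2.98-fold lower (2.10 to 4.31) and HAND2 (6.18 and 17.1 CPM) 2.77-fold lower (1.96 to 3.997). HAND1 (1.72 and 1.60 CPM) and TBX20 (3.59 and 5.42 CPM) were low in both. TTN at 39.0 and 34.9 CPM, MEF2C at 125 and 138 CPM and ATP2A2 at 477 and 375 CPM were within 2-fold. Past 2-fold, the transcription factors NKX2-5 and HAND2 and the thin filament gene ACTC1 were thus lower, while a light chain and a troponin were higher. Thin filament genes therefore lay on both sides.

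Between 60 and 96 h in suspension, 10 members could be compared, with 4 higher and 2 lower, where 5.54% and 10.5% of 12405 genes were. The suspended 60 h library is shared with the comparison above. MYL4 rose to 405 CPM, 2.71-fold (2.53 to 2.90). DES rose from 2.16 to 17.5 CPM, 8.10-fold (4.79 to 14.7). MYOM1 (myomesin, which links myosin and titin at the M-band) rose from 1.58 to 20.3 CPM, 12.9-fold (7.06 to 26.2), and TNNI3 went from 1 read to 94 (0.144 to 8.50 CPM). MYOM1 and TNNI3 fall outside the rule for named genes and were chosen after their values were seen.

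TNNI3 and TNNT1 lie 2412 bases apart on chromosome 19, and both were at their highest in suspended cells at 96 h, TNNT1 at 25.4 CPM. The other neighbouring pair of troponins, TNNT2 and TNNI1 on chromosome 1, 26005 bases apart, had no read in any suspended or adherent library. HAND2 fell from 6.18 to 0.362 CPM, 17.1-fold (6.21 to 65.5), and ACTC1 from 6.04 to 0.633 CPM, 9.54-fold (4.25 to 25.2). NKX2-5 went from 32 reads to none, at least 17.0-fold lower when 3 reads are allowed. MEF2C was 1.504-fold higher (1.39 to 1.63), and TTN was at 41.5 CPM, within the interval of no change (0.915 to 1.24).

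Between the same libraries the blood list of 12 genes summed to 176 CPM in adherent cells, 2440 CPM in suspended cells at 60 h and 8708 CPM at 96 h. The endothelial list summed to 9772, 1951 and 893 CPM and the mesenchyme list to 2294, 523 and 82.4 CPM in the same order. The skeletal muscle list stayed at 5.17, 5.03 and 4.88 CPM, and NPPA, TNNT2 and MYL7 were at 1.36 CPM, 0 and 0 at 96 h. GATA1, the erythroid factor, was at 3.45, 136 and 291 CPM. What these cell types contributed to the members' values was not tested.

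**Figure D5:**
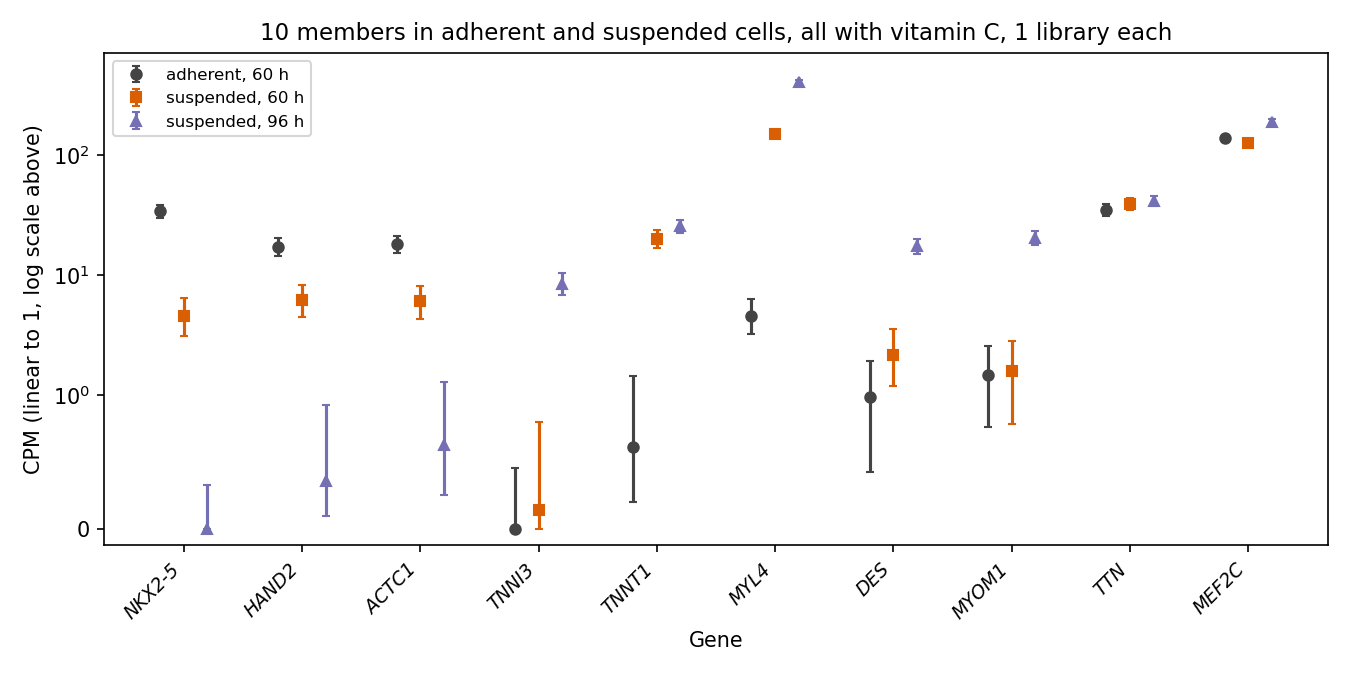
CPM of 10 members in adherent cells at 60 h (circles) and suspended cells at 60 h (squares) and 96 h (triangles), all with vitamin C, 1 library each, with exact 95% Poisson intervals. The axis is linear to 1 and logarithmic above. NKX2-5, HAND2 and ACTC1 step down from left to right, MYL4, DES, MYOM1 and TNNI3 step up, and TTN and MEF2C stay level within 2-fold.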

How the data were processed

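Trizol extracts (1 µg of total RNA) went into TruSeq libraries, per the labels' protocols. The authors deposited 1 table per library: raw read counts for the 13 libraries of the course and of adherent and suspended cells, and values read as TPM for the 4 sorted libraries, which sum to 995020 to 996531 and carry no depth. How the deposited TPM were made, and the annotation and strand used in counting, are not given in the sources used here. Builds hg38 and GRCh38, the tools DESeq 1.18.1 and HTSeq 0.6.0, HISAT2 2.0.4 and SAMtools 1.3.1 are listed per the submitters' processing notes, without roles. Genes were named and placed with GENCODE release 29 (GRCh38).

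CPM are of the library total. Counts (6214675 to 11058345 per library) were tested with edgeR 4.0.16 (R 4.3.3; quasi-likelihood F test, TMM, filterByExpr), and log2(TPM + 1), which understates changes of low genes, with limma 3.58.1 (trend) for genes at 1 TPM or more in at least 2 libraries. Two-sided p-values were adjusted by Benjamini and Hochberg's method across every gene in the fit, and calls needed an adjusted p under 0.05. SE were taken from the F or moderated statistic. With 1 library per condition and time, the course's p-values reflect scatter among libraries of different times and not among cultures. Pairs of single libraries were compared with exact 95% intervals, Poisson for levels and binomial for ratios. The fits were checked on simulated data. Alternatives were DESeq2 1.42.0 and its size factors, no filter, leaving out each library or pair, other terms for time, other pseudocounts, the descriptions' groups and a replicate block. Members with at least 10 CPM in a course library or 10 TPM in a sorted one are given by library, the others by range, and of each other list up to 3 genes with the smallest p are named. The members and lists were chosen with earlier results of these data known. Some genes of the further lists are not reported here, and the lists' counts leave them out. Cells negative for the reporter were not analysed here.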

Additional observations from a re-analysis of the deposited data

How the results depend on the processing

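Depth limits the low members: a library with no read allows up to 3 reads, 0.271 to 0.483 CPM, and 10 of the 33 members were too low to test over the course. The 0 h arm has 1 library per condition, so that each fall rests on 2 libraries. Of the alternatives for single members, 204 kept direction and side of the threshold, 38 lost and 5 gained a call after re-plating, and 112 kept and 16 lost it for vitamin C over the course, where 3 reversed. These 3 are TRDN, from 0.22 to -2.46 in DESeq2 and to -4.50 and -4.48 without the 0 h library lacking or with vitamin C, in a range of -4.50 to 0.67 over libraries left out. With a 0 h library left out, the other has no partner, so those fits compare 11 reads without vitamin C with 0 reads with it. Why DESeq2 differed was not tested.

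For vitamin C over the course, 7 members and 955 genes were called. With no term for time it was 0 members and 28 genes, and with no filter 1591 genes. Leaving out each library gave 5 to 7 members and 505 to 1209 genes. After re-plating, 13 members and 3343 genes were called. A straight line in hours gave 6 members and 1823 genes, the condition with vitamin C alone 6 and 739, and the one without alone 8 and 835, these last 2 chosen after seeing the data. Leaving out each library gave 8 to 13 members and 894 to 3671 genes. Fewer samples enter the fits of 1 condition. The interaction called 0 genes in the main setting, 15 with DESeq2 and 2 with no filter, and 0 to 0 when libraries were left out; without either 0 h library it could not be fitted.

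In sorted cells, 0 members and 0 genes were called for vitamin C by title, with each pseudocount and filter, and 0 to 1 genes when a library was left out, the lone library of an arm being assumed to vary like the other arm. The descriptions' groups called 156 genes and 0 members and reversed MYL7 to 0.66. For the replicate number, 1 member and 239 genes were called. This became 0 and 77 with 0.1 TPM added, 4 (with HAND1, HAND2 and MEF2C) and 408 with 5 TPM added, 0 and 0 with no filter, and 0 and 156 with no term for vitamin C. Leaving out a library could not be fitted there, since no residual degree of freedom remains.

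Replicate numbers are shared by the 2 sorted groups. With the replicate block, vitamin C called 0 members and 0 genes, as without it, with 1237 genes at an unadjusted p under 0.05. Deviations of libraries with the same number correlated (r = 0.565 over 14421 genes, which are not independent), but with 2 pairs and no label that ties a number to a culture, the libraries share only a number.

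Adding 5 CPM to the ratios of single libraries left 4 of 5 members past 2-fold between suspended and adherent cells and 5 of 6 between 96 and 60 h.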
